A study of Caenorhabditis elegans with 2 samples.

Results

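The LIM homeobox genes of Caenorhabditis elegans, 7 in this set, were examined for sites recovered with TTX-3, itself the product of one of them. They were taken by name from 19985 annotated protein-coding genes: ttx-3, ceh-14, lin-11, lim-4, lim-6, lim-7 and mec-3. For each gene, all peak summits from 5000 bp upstream of any annotated 5' end to 1000 bp past the gene end were collected. The material was whole late embryos, 4 hours after synchronization by bleaching, of hermaphrodites of strain OP68 (unc-119(ed3) III; wgIs68). These animals carry the unc-119(ed3) mutation and an integrated transgene that expresses TTX-3 with GFP and FLAG at its C terminus, and an anti-GFP antibody was used. All samples, 2 biological replicates, form 1 group, and conditions could therefore not be tested against each other. The transgene is carried in addition to the chromosomal ttx-3 gene, and in these lists reads from one copy cannot be told apart from reads of the other.

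LIM homeodomain proteins join a pair of zinc-binding LIM domains, which contact cofactors such as LDB-1, to a homeodomain that binds DNA with a TAAT core. In the worm they act mostly as late regulators that give single neuron classes their identity, often paired with another homeodomain protein and often sustaining their own expression. Together with CEH-10, TTX-3 gives the AIY interneurons, part of the circuit for thermotaxis, their identity, and ttx-3 is a known target of this pair.

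The data are peak lists with a signal, the strength that the authors' peak caller gave to each region, and a summit position. The pooled list of both replicates and each replicate's own list hold 30000 regions, down to the level of background. The authors' reproducibility filter left 700 optimal peaks, which are the 700 strongest of the pooled list, with a signal of at least 72.5 against a median of 26.9 in the pooled list. The lists hold no read counts, so the depth is unknown, and the exact 95% intervals given below (Clopper-Pearson) cover counting error only. A weak peak in many cells and a strong peak in few cells cannot be told apart in whole embryos.

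The sequences under 3 summits of ttx-3, the lim-4 summit that both replicates listed, and the mec-3 and ceh-14 summits of highest pooled signal are shown first, since a TAAT core is what a homeodomain contacts. All are read from WBcel235 (the coordinates of ce11), in the direction in which the gene is transcribed. Capitals mark TAATTA or TAATTG on either strand, where CAATTA is TAATTG on the other strand. The first window, chrX:11766356-11766556, holds 100 bases to each side of the summit of the optimal peak in intron 7 of ttx-3. The second, chrX:11768892-11768992, lies in intron 1 of ttx-3 and the third, chrX:11770800-11770900, upstream of it. The remaining windows are chrX:3871933-3872033 in intron 3 of lim-4, chrIV:10463005-10463105 upstream of mec-3 and chrX:7529470-7529570 in intron 6 of ceh-14.
ttx-3 intron 7: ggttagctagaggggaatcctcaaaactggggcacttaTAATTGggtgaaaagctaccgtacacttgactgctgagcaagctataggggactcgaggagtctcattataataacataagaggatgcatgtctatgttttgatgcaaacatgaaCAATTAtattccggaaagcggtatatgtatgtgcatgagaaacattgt
ttx-3 intron 1: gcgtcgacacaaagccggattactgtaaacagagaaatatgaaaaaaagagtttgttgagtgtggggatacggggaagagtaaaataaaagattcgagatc
ttx-3 upstream: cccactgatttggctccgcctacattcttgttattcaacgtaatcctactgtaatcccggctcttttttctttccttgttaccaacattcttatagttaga
lim-4 intron 3: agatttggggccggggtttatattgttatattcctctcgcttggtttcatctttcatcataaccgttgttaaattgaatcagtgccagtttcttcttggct
mec-3 upstream: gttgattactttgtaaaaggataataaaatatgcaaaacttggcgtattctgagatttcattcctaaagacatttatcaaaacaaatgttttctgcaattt
ceh-14 intron 6: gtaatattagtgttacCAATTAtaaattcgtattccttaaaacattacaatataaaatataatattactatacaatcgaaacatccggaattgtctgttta

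In the ttx-3 intron 7 window, TAATTG starts 62 bases before the summit, and its complement starts 53 bases after it, so the summit lies between a pair of sites. Neither TAATTA nor TAATTG lies within 50 bp of this summit. Windows of 201 bases with 2 or more such TAATTG sites, a count chosen after the sequence was seen, made up 1.95% of the pooled list and 2.14% of the optimal list. The lim-4, mec-3 and remaining ttx-3 windows, which are narrower at 101 bases, hold neither hexamer. A match is a description of these letters, and its absence says nothing about the binding of a factor.

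The main result is that 1 of the 7 genes, ttx-3, had an optimal peak (14.3%, interval 0.361% to 57.9%). In windows built the same way, 7.4% of all protein-coding genes had one. The windows had a median of 10.96 kb in the 7 genes and 8.03 kb over all protein-coding genes. The part of window length in these shares was not tested. Each of the 7 genes had at least 1 summit of the pooled list, as did 76.3% of all protein-coding genes. The lowest count among the 7 was 2, and the median count was 3 against 2 over all protein-coding genes. In all, 30 pooled summits lay in the 7 windows, 0.364 per kb against 0.290 per kb over the windows of all protein-coding genes. The interval of the share in the 7 genes includes that of all genes.

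**Figure D1:**
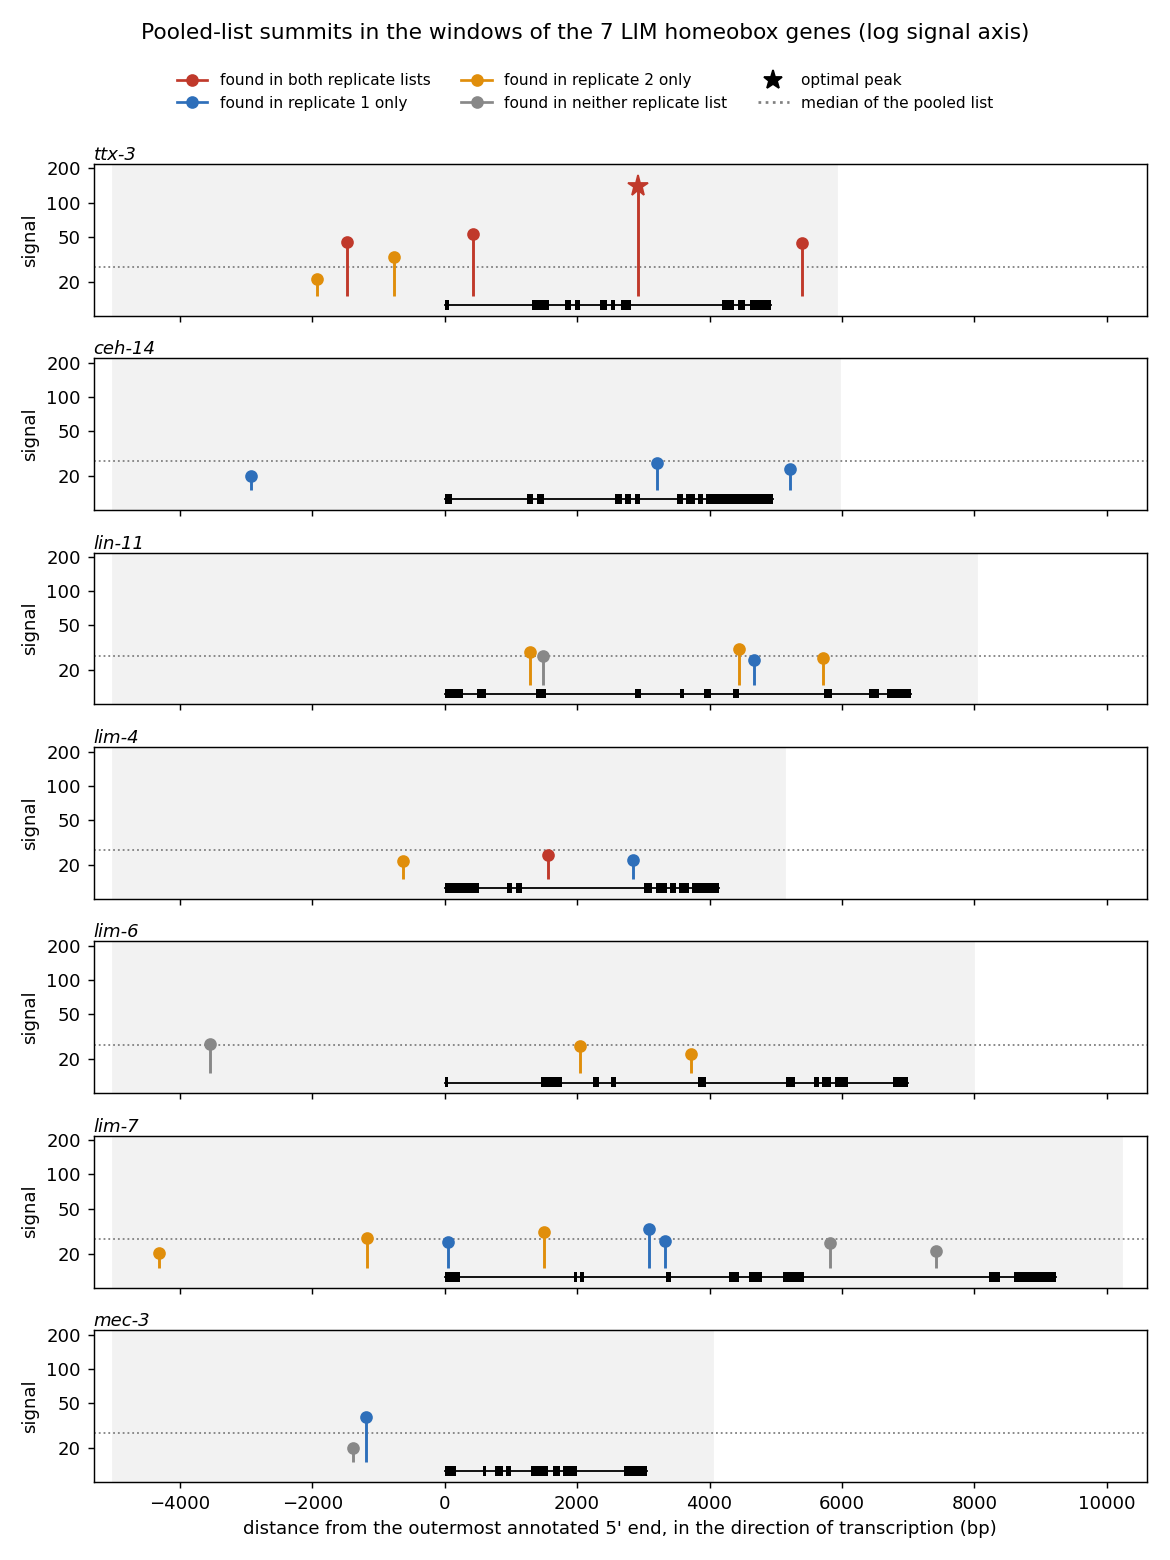
Pooled-list summits in the 7 gene windows. Each stem is 1 summit, its height is the pooled signal on a log axis, and the horizontal axis is the distance from the outermost annotated 5' end in bp. Red marks summits found in both replicate lists, blue those in replicate 1 only, orange those in replicate 2 only and grey those in neither. Black boxes are exons, grey shading is the window examined and the dotted line is the pooled median of 26.9. The star in intron 7 of ttx-3 (140.8) is the only optimal peak in the 7 windows, and no summit of the other genes exceeds 37.4.

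ttx-3 itself (WBGene00006654, chrX:11764456-11769378, minus strand) carried the strongest summit of the set. Its optimal peak (chrX:11766231-11766680) had a signal of 140.8 in the pooled list, 78.5 in replicate 1 and 69.5 in replicate 2. The rank was nearly the same in all lists, at 207 in the pooled list, 206 in replicate 1 and 207 in replicate 2. The replicate signals differed by a ratio of 1.13, close to the median ratio of 1.07 over the 647 optimal peaks found in both replicates (quartiles 0.881 and 1.33). The summit lay 100 bases into intron 7, which is 1373 bp long, in the longer transcript C40H5.5a.1 with 9 introns. Of the 450 bp of the peak, 325 were in intron 7 and 125 in exon 7. The nearest annotated 5' end was that of the shorter ttx-3 transcript, 1588 bp away, and no gene for a tRNA, snoRNA or snRNA lay within 100 bp.

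Another 5 summits of the pooled list lay around ttx-3, all below the optimal threshold. The summit in intron 1 (chrX:11768717-11769166), 436 bp past the first 5' end, had a pooled signal of 52.3 (rank 1583), with 17.3 in replicate 1 and 33.5 in replicate 2. The order of the replicates was the reverse of that at intron 7, with a ratio of 0.518. The summit 1472 bp upstream had 44.7 in the pooled list, 22.7 in replicate 1 and 19.7 in replicate 2. The summit beyond the 3' end, inside the neighbouring gene lact-7, had 43.8 in the pooled list, 24.9 in replicate 1 and 13.7 in replicate 2. Thus 4 of the 6 summits, those of highest pooled signal, were found in both replicate lists (66.7%, interval 22.3% to 95.7%). Of all pooled summits, 22.4% were found in both, but of the 3000 strongest, among which these 4 rank, 76.5% were. The last pair, 762 and 1931 bp upstream, had pooled signals of 33.1 and 21.1 and, within 100 bp, were found in replicate 2 alone.

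Replicate 1 also listed summits at ttx-3 with no pooled summit within 100 bp. The strongest of these, 3724 bp upstream, had a signal of 34.1 and rank 1135, above its 17.3 at intron 1, and its nearest pooled summit was 1780 bp away and its nearest replicate 2 summit 1783 bp away. Another, 639 bp upstream, had 25.5 and rank 3001. It missed the limit of 100 bp narrowly, at 123 bp from the pooled summit 762 bp upstream and 117 bp from that of replicate 2, and lay inside the pooled region. A weaker replicate 1 summit, 1717 bp upstream, had 13.9. It lay 214 bp from the pooled summit 1931 bp upstream and also inside the region of that summit. In the ttx-3 window the replicate 1 list held 9 summits and the replicate 2 list 6, of which 4 were shared.

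Because the strain carries extra ttx-3 sequence, the 50 kb to each side of the gene were examined in every list. Within 20 kb of the middle of ttx-3, replicate 1 held 22 summits and replicate 2 held 18, while windows of 40 kb along chromosome X held 10.9 and 10.4 on average. Of 442 such windows, 0.905% held as many in replicate 1 and 4.3% in replicate 2. The pooled list held 15 there against a mean of 10.2, a number reached by 17.9% of the windows. From 20 to 50 kb away the density was 0.317 summits per kb in replicate 1, 0.25 in replicate 2 and 0.2 in the pooled list, against 0.271, 0.259 and 0.254 per kb over chromosome X. Summits were thus denser near ttx-3 than in its flanks in all 3 lists. How far the transgene contributes to this, or to the signals at ttx-3 above, was not tested.

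**Figure D2:**
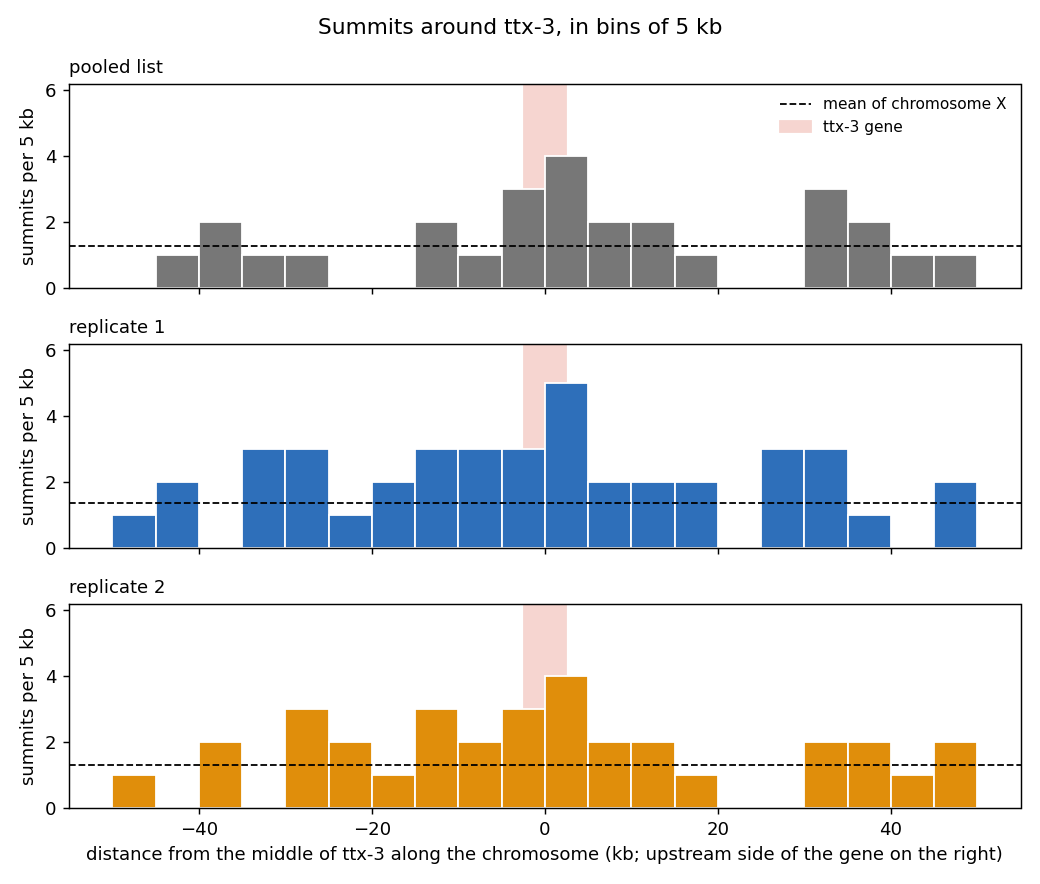
Summits per bin of 5 kb against the distance in kb from the middle of ttx-3, in the pooled list, replicate 1 and replicate 2. The dashed line is the mean of chromosome X and the shaded band is the gene. The highest bin in each list is the one just upstream of the middle of the gene, with 4 summits in the pooled list, 5 in replicate 1 and 4 in replicate 2.

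Strong peaks also flanked ttx-3 outside its window. The tRNA gene C40H5.t1, 6548 bp beyond the 3' end of ttx-3, carried an optimal peak of signal 557, with 292 in replicate 1 and 263 in replicate 2. A weaker optimal peak of 74.7 lay 10959 bp beyond the 3' end, nearest to the 5' end of C40H5.2. On the upstream side a summit at 7557 bp had 55.4, below the threshold. The ttx-3 optimal peak was therefore the middle one in strength of 3 optimal peaks within 20 kb of the middle of the gene.

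Among the 79 genes with an optimal intronic summit and no tRNA, snoRNA or snRNA gene within 100 bp, ttx-3 took place 17 by signal. Next above it were unc-104 (143.1), which encodes the kinesin that carries synaptic vesicle precursors, and egl-30 (143.3), which encodes a Gq alpha subunit. Next below were W05H12.1 (137) and T02E1.2 (129.8). The summits of egl-30 and T02E1.2 lay 77 and 176 bp from a 5' end of the same gene, and those of unc-104 and W05H12.1 lay 5712 and 2729 bp from one, so the ttx-3 summit, at 1588 bp, was between these in distance. Within 100 bp, the egl-30 summit (chrI:1836574) was found in replicate 2 (80.3) and not in replicate 1. A neighbouring optimal summit at chrI:1836774 was found in both, with 64.3 in replicate 1 and 47.6 in replicate 2.

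The other 6 LIM homeobox genes had 24 pooled summits with signals from 19.8 to 37.4 and a median of 25.4, and 16 of these were below the pooled median. The strongest signal in a window was 37.4 for mec-3, 32.7 for lim-7, 31.1 for lin-11, 27.4 for lim-6, 26.3 for ceh-14 and 24.3 for lim-4. Among the strongest signals of all protein-coding genes with a pooled summit, mec-3 stood at percentile 55.9, lim-7 at 42.2, lin-11 at 36.7, lim-6 at 24.1, ceh-14 at 20.3 and lim-4 at 13.4, while ttx-3 stood at 97.1. The median over the 7 genes was 31.1, against 35.3 over all protein-coding genes (quartiles 27.7 and 46.9). With no replicate spread on the pooled signal, neighbours in this order cannot be said to differ.

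**Figure D3:**
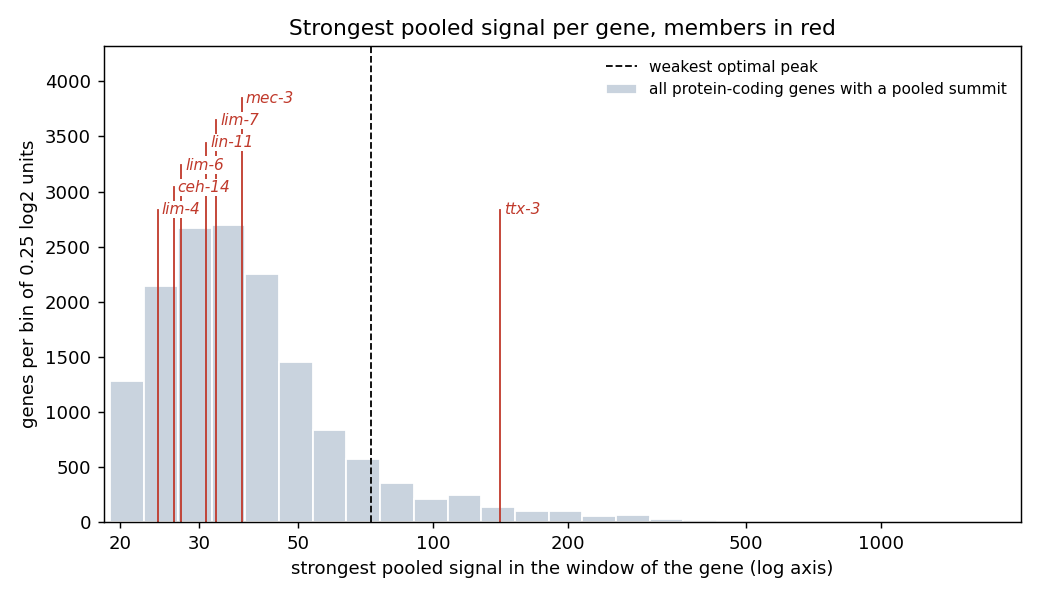
Strongest pooled signal in the window of each gene, on a log axis, for all protein-coding genes with a pooled summit (bars, genes per bin) and for the 7 members (red lines; line height has no meaning). The dashed line is the weakest optimal peak, at 72.5. Of the 7 members, ttx-3 alone, at 140.8, lies to its right, and 440 of all protein-coding genes have a stronger signal than ttx-3.

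mec-3 (WBGene00003167, chrIV:10458816-10461867, minus strand) encodes the partner of UNC-86 in touch receptor neurons. Its best summit, 1188 bp upstream (chrIV:10462830-10463279), had a pooled signal of 37.4 at rank 5220. Replicate 1 listed it with 23.3 (rank 4168), and replicate 2 listed no summit in the whole mec-3 window. A second summit 201 bp from it, with an overlapping region, had 19.8 and was in neither replicate list within 100 bp. No summit lay inside the gene.

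lim-7 (WBGene00002989, chrI:5716574-5725809, plus strand), the worm member of the Islet group, is known from the gonadal sheath. It had the most summits, 8 in a window of 15.2 kb. The best, in intron 3, had 32.7 in the pooled list and 21.6 in replicate 1. The next, in intron 1, had 31.3 in the pooled list and 22.1 in replicate 2. The summit 52 bp past the 5' end had 25.1, with 22.9 in replicate 1, while that 1168 bp upstream had 27.3, with 24.1 in replicate 2. Within 100 bp, none of the 8 summits was found in both replicates, 3 were in replicate 1 alone, 3 in replicate 2 alone and 2 in neither.

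lin-11 (WBGene00003000, chrI:10248288-10255327, plus strand) acts in vulval lineages and in interneurons such as AIZ. Its 5 summits all lay inside the gene. The best had 31.1 in the pooled list and 17.9 in replicate 2, and lay at the second base of intron 7. Another summit of intron 7, 221 bp away, had 24.9 and was found in replicate 1 alone, with 16.9. One more in that intron had 25.7, with 22.3 in replicate 2. No lin-11 summit was in both replicate lists within 100 bp, although 1 was within 200 bp.

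lim-4 (WBGene00002987, chrX:3869404-3873545, minus strand) sets the identity of the AWB olfactory neurons. It had the lowest best signal but also the only summit outside ttx-3 that both replicates listed. This summit, in intron 3, had 24.3 in the pooled list, 15.5 in replicate 1 and 12.9 in replicate 2, at ranks 19414, 14931 and 27156. A second summit of intron 3 had 22.1, in replicate 1 alone. The summit 621 bp upstream, in replicate 2 alone, had 21.5 and held TAATTA within 50 bp.

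lim-6 (WBGene00002988, chrX:1072452-1079452, plus strand), related to vertebrate Lmx1 and active in GABAergic neurons, had 3 summits. The best of these, at 27.4, lay inside the next gene, mksr-1, 218 bp from the 5' end of that gene, and was in neither replicate list. The summits in introns 2 and 4 had 26.2 and 22.3, each in replicate 2 alone, with 16.1 and 13.4. The first of these lay 343 bp past an inner 5' end of lim-6.

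ceh-14 (WBGene00000438, chrX:7527769-7532732, minus strand), related to vertebrate Lhx3 and needed in the AFD thermosensory neurons, also had 3 summits, each found in replicate 1 alone. That in intron 6 had 26.3 in the pooled list and 16.3 in replicate 1, and its window holds the TAATTG site shown above. Replicate 2 listed 1 summit in the ceh-14 window, with 16.2, in the same intron and inside the pooled region, 141 bp from the pooled summit and so beyond the limit of 100 bp. The summit beyond the gene end (22.9) and that upstream (19.99) were nearer to the 5' ends of F46C8.3 and dpy-7.

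By replicate agreement, 5 of the 30 member summits were in both replicate lists (16.7%, interval 5.64% to 34.7%), against 22.4% of the whole pooled list. With summits matched within 200 bp, the member share was 26.7%, against 33.9% of the whole list, and within 50 bp it was 13.3%, against 13.35%. Of the rest, by the limit of 100 bp, 9 were in replicate 1 alone, 11 in replicate 2 alone and 5 in neither. Some of these 5 had a replicate summit further away but inside their region. For the lim-7 summit of 24.9, a replicate 1 summit of 19.05 lay 132 bp away. At lin-11 and mec-3 the replicate summit lay within 100 bp of a neighbouring pooled summit. Without ttx-3 the share was 1 of 24 (4.17%, interval 0.105% to 21.1%). All 4 member summits among the 3000 strongest of the pooled list were in both, as were 76.5% of all summits of these ranks, and the 4 were those of ttx-3. From rank 3001 down, 1 of 26 member summits was in both (3.85%, interval 0.0973% to 19.6%), against 16.4% of all pooled summits of these ranks. In the whole list, 92.4% of the optimal peaks were in both replicate lists, and 1.77% of the 10000 weakest pooled summits were. The optimal list includes 11 mitochondrial peaks. These could not be in both, since replicate 2 listed no mitochondrial region.

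Seen from the replicates, replicate 1 listed 34 summits in the 7 windows and replicate 2 listed 22. Of these, 14 of the replicate 1 summits (41.2%) and 16 of the replicate 2 summits (72.7%) had a pooled summit within 100 bp, against 50.8% and 54.6% of the whole lists. ceh-14 had 5 in replicate 1 and 1 in replicate 2, lim-6 had 5 and 2, and mec-3 had 3 and 0. lin-11 had 3 and 5, and lim-4 had 3 in each list. ttx-3, with 9 and 6, had the highest count of the 7 genes in each replicate.

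**Figure D4:**
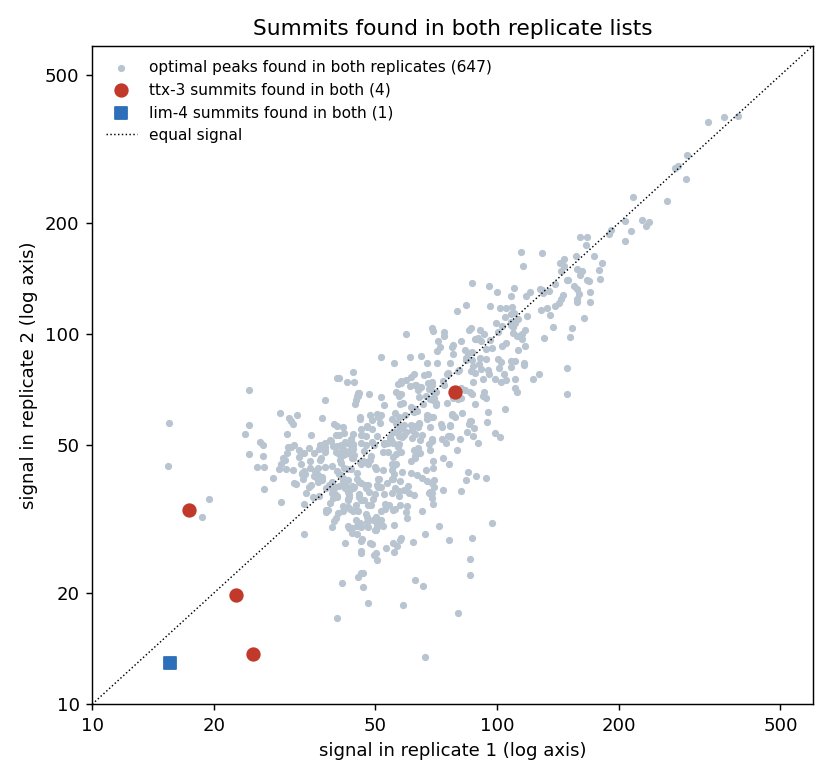
Signal in replicate 2 against signal in replicate 1, both on log axes, for summits found in both lists. Grey points are 647 optimal peaks, red points the 4 summits of ttx-3, and the blue square the 1 summit of lim-4; the dotted line marks equal signal. The intron 7 peak of ttx-3 (78.5 and 69.5) lies within the grey cloud, and the other member points lie at its lower left edge or below it.

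By location, introns held 16 of the 30 member summits (53.3%) and 34.5% of the window bases, which is 0.562 summits per kb. Upstream sequence held 10 summits at 0.286 per kb, coding exons 1 and untranslated exons 1, and 2 lay past a gene end. Over all protein-coding genes the densities were 0.382 per kb in introns, 0.292 upstream, 0.329 downstream, 0.339 in untranslated exons and 0.109 in coding exons. Introns had the highest density of the 5 location classes in both sets, and the difference between the sets was not tested. In 4 pairs of member summits the regions overlapped, at lin-11, lim-7 and mec-3, so the 30 summits are not independent. For 25 of the 30, the nearest protein-coding 5' end was that of the member itself, and none had a tRNA, snoRNA or snRNA gene within 100 bp.

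TAATTA lay within 50 bp of 4 of the 30 member summits (13.3%, interval 3.76% to 30.7%), 3 of them in lim-7 introns and 1 upstream of lim-4. These lim-7 summits include the 2 that were found in neither replicate list. In windows of the same 101 bases TAATTA was present at 6.74% of all pooled and 5.29% of optimal summits. Within 100 bp it lay at 9 of the 30 member summits (30%), 3 of these 9 at ttx-3, against 12.8% of all pooled summits. Within 25 bp it lay at 3 of the 30 (10%), 2 of these at lim-7, against 3.34%. No interval was computed for these distances, and the differences were not tested. Within 50 bp, TAATTG was present at 1 member summit, that of ceh-14, and at 8.77% of all pooled summits. The hexamer GCGCAC was at none of the 30 member summits (interval up to 11.6%), at 2.37% of all pooled summits and at 13.9% of optimal summits. The member windows had a median of 32.2% G and C, against 32.7% in the whole pooled list and 48.5% in the optimal list, so the member windows were close to the pooled list in base composition and differed from the optimal list, and the part of base composition in the differences from the optimal list was not tested. None of the 5 summits found in both replicates held TAATTA or TAATTG within 50 bp.

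The set was compared with 2 related lists. Of 16 other LIM domain genes and partners, 2 (12.5%, interval 1.55% to 38.3%) had an optimal summit, and both summits lay within 100 bp of tRNA genes. That of lim-8, which encodes another LIM domain protein, had 91.0, with 43.0 in replicate 1 and 48.3 in replicate 2, beside F28F5.t1. That of unc-115, which encodes an actin-binding LIM protein of axon guidance, had 85.2, with 53.2 in replicate 2 and none in replicate 1, beside F09B9.t1. The cofactor gene ldb-1 had 13 pooled summits with at most 47.9, ceh-10 had 3 with at most 48.1 and unc-86 had 5 with at most 33.6. The median of the strongest signals was 31.1 in the LIM homeobox genes and 39.02 in this list.

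Of 93 other homeobox genes, ceh-10 and unc-86 included, 3 (3.23%, interval 0.670% to 9.14%) had an optimal summit. The summit upstream of ceh-39 (190.7) lay within 100 bp of the tRNA gene T26C11.t1, and that upstream of ceh-5 (74.1) lay 287 bp from the 5' end of eat-16. The summit 4359 bp upstream of ceh-58, with 132.8 in the pooled list, 62.8 in replicate 1 and 62.6 in replicate 2, was nearest to ceh-58 itself and had no small RNA gene within 100 bp. All 7 LIM homeobox genes had a pooled summit, against 80.6% of the other homeobox genes, whose strongest signals had a median of 36.0. The median window was 10.96 kb in the 7 genes and 9.31 kb in the other homeobox genes.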

How the data were processed

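Peak lists on ce11 from ChIP-seq of TTX-3 with a GFP tag were used, for 2 replicates. Each replicate's list was made from its alignments and a control file, the pooled list from both replicates, and the optimal list from these, per the deposited file descriptions. Which aligner and peak caller were run, and with what IDR threshold, was not stated there. The deposited signal of each region is the caller's peak strength against the control and has no stated scale between lists. The −log10 q-values deposited by the authors were read but not used for calls. The ce10 lists and the control were not used here. Summits were placed on WBcel235 with Ensembl release 115. No peak end exceeded its chromosome. A summit was found in a replicate when that list had a summit within 100 bp. Small RNA genes without a name took the RefSeq symbol at the same coordinates.

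All members are named, as are genes of the comparison lists with an optimal summit, those nearest to ttx-3 by intronic signal and partners. The members and lists were chosen with earlier results of these data known. Placing and matching were tested on simulated data. Python 3.11.15, numpy 2.4.6, pandas 2.3.3, scipy 1.17.1 and matplotlib 3.10.9 were used.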

Additional observations from a re-analysis of the deposited data

How the results depend on the processing

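ttx-3 had an optimal peak under every alternative run, including without replicate 1 and without replicate 2, where the count stayed at 1. With an upstream limit of 10000 bp the count was 2, since lim-7 gained the peak at a snoRNA gene; the median strongest signal was then 42.01, and the strongest signals of lim-4, lim-6 and lim-7 were 42.01, 61.8 and 215. The strongest signal of lim-6 was 26.2 with a limit of 2000 bp and with summits nearest to its own 5' end. The 30 summits became 27 and 38 with upstream limits of 2000 and 10000 bp, and 25 when only those nearest to a member's own 5' end were taken. The list of a single replicate gave 22 without replicate 1 and 34 without replicate 2. The share found in both replicates ran from 13.3% within 50 bp to 26.7% within 200 bp. The share with TAATTA was 0% among summits found in both replicates, 10% within 25 bp and 30% within 100 bp, against 13.3% within 50 bp. Leaving out ttx-3, chosen after seeing the data, gave a median strongest signal of 29.25 and a share found in both replicates of 4.17%. Of the values under alternatives, 37 stayed within their limits and 10 moved, the values without ttx-3 included. The limit was a set fold range for counts and densities, the interval of the main value for shares, and equality for strongest signals. These numbers are therefore not a common measure of stability. The unknown depth limits every absence: a summit outside the 30000 regions of a list was not listed, which does not show that TTX-3 was not there.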

Other observations

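Stronger summits lay between 5000 and 10000 bp upstream of several members. The optimal peak 9568 bp upstream of lim-7 reached 215 in the pooled list, 116.8 in replicate 1 and 102.7 in replicate 2. It was within 100 bp of the snoRNA gene T19B4.8 and 4850 bp from the nearest 5' end, that of pamn-1. The summit 8194 bp upstream of lim-6 had 61.8, with 25.6 and 22.5 in replicates 1 and 2, and was nearest to unc-1, which encodes a stomatin. The summit 6308 bp upstream of lim-4 had 42.01, with 22.0 and 21.6 in replicates 1 and 2, and lay 9 bp from the 5' end of F47F2.1. Each of these was found in both replicate lists, and for each the nearest 5' end was that of another gene. At the edge of the optimal list, unc-97, which encodes a LIM domain protein of muscle attachments, had a strongest pooled signal of 72.4, against 72.5 for the weakest optimal peak.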
